A study of Brassica rapa subsp. pekinensis with 6 samples.

Results

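The genes described here were abundant in flower buds of both a male sterile Chinese cabbage and its fertile wild type, and their deposited levels were close between them. Reads per gene were counted in developing buds of Brassica rapa subsp. pekinensis, a leafy vegetable, at full bloom. The mutant, msm, was set against its wild type, the line FT. Each group held 3 libraries, named msm 1, 2 and 3 and wild type 1, 2 and 4 after their titles. The labels name no agent, plant age or batch, and do not state if a group's libraries came from different plants or how many plants gave each, so that the spread within a group may be technical. A gene was a member if its mean was at least 300 RPKM (reads scaled to coding length and to the library total) in msm and in wild type and if the msm mean was 0.8 to 1.25 times the wild-type mean. Of 35421 genes with a read, 176 met this rule. The levels and ratios of all 6 libraries chose these genes, so both are given as a description, and calls of the members from fits over all genes, given further on, are a description too.

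A flower bud holds sepals, petals, carpels and stamens. In the stamens the tapetum, a cell layer of the anther, feeds the developing pollen, and in many male sterile plants pollen or tapetum fails. Sequencing gives each library a limited number of reads, so a gene's RPKM is a share of the reads and not an amount of RNA per cell. When abundant transcripts of one kind are missing from a tissue, the remaining transcripts take a larger share even at the same amount per cell. Scaling methods such as TMM (trimmed mean of M values) estimate a factor per library that centres most genes on no change. Brassica rapa carries related copies of many genes from an old multiplication of its genome, and reads of near-identical copies may be lost or placed on the wrong copy when only uniquely assigned reads are counted. None of the 176 identifiers matched a symbol in the RefSeq gene table used for names, so no function is given to any member, and the labelled tissue could not be checked against marker genes.

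The libraries held on average 25534727 ± 600111 uniquely assigned reads in msm and 25156752 ± 216956 in wild type (SD, n = 3 each). A member had between 1587 and 43403 reads in a library, with a median of 6584.5. At these counts, counting error alone gives a median coefficient of variation (CV) of 1.23% in msm and 1.24% in wild type. The total RNA of buds was measured, so fewer cells of a type and less RNA per cell cannot be told apart.

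The members formed a broad upper layer of the expressed genes, below the very highest. Their mean levels ran from 300.3 to 1282 RPKM in msm, with a median of 418, and from 300.5 to 1249 RPKM in wild type, with a median of 403. None was among the 10 most abundant genes of either group. The highest rank of a member was 16 in msm and 29 in wild type. Among the 100 most abundant genes, 36 were members in msm and 23 in wild type. At least 1000 RPKM was reached by 6 members in msm and 5 in wild type, and at least 500 RPKM by 52 and 48. In all, 272 genes had at least 300 RPKM in both groups, so the members were 64.7% of them; 66 of the other genes lay above the ratio window and 30 below it. The plot of ratio against level shows that the genes outside the window spread widely on both sides of the members.

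**Figure D1:**
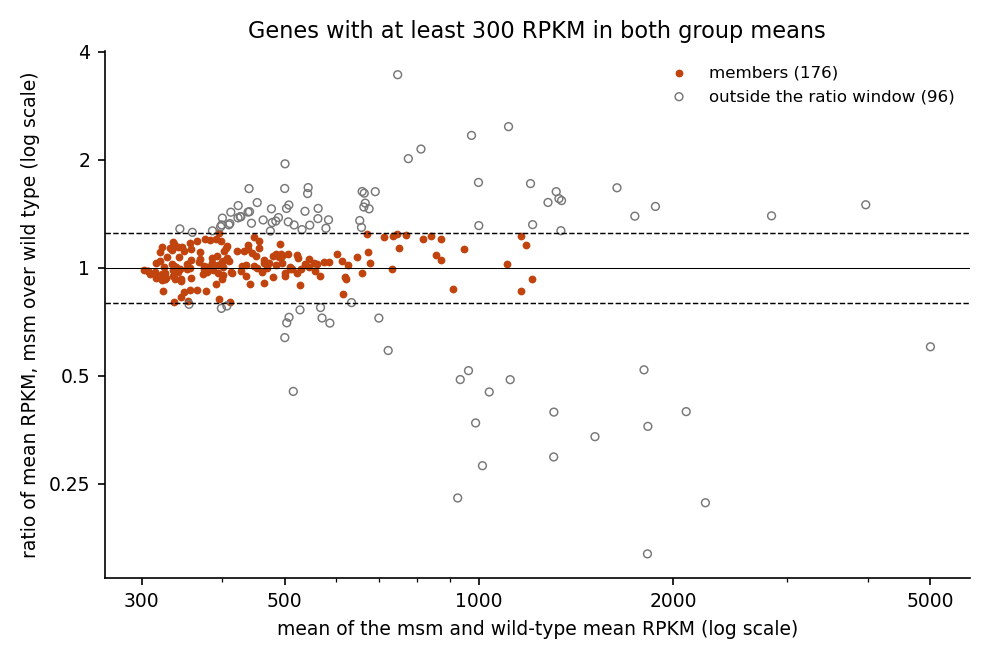
Each point is one of the 272 genes with at least 300 RPKM in both group means; the horizontal axis is the average of the 2 group means in RPKM on a log scale, and the vertical axis is the ratio of mean RPKM, msm over wild type, on a log scale. Filled points are the 176 members between the dashed lines at 0.8 and 1.25, and open points are the 96 genes outside, 66 above and 30 below.

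Together the members took a similar part of the reads in both groups. Their share was 6.31%, 5.93% and 6.10% of all reads in msm 1, 2 and 3, and 5.91%, 5.78% and 5.98% in wild type 1, 2 and 4. The mean was 6.11% ± 0.192 in msm and 5.89% ± 0.10 in wild type (SD, n = 3 each). The groups overlapped, since msm 2 lay below wild type 4. The rule keeps each ratio near 1, which fixes this closeness in advance.

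The member with the highest mean over all libraries was Bra024207 (coding length 426 bases). It had 1335, 1043 and 1109 RPKM in the msm libraries, against 1199.8, 1209 and 1339 RPKM in the wild-type libraries. The groups overlapped, with msm 1 and wild type 4 close together at the top. Its means were 1162 ± 153 RPKM in msm and 1249 ± 78.0 RPKM in wild type (SD, n = 3 each). Bra000265 (390 bases) came next, with 1392, 1142 and 1270.0 RPKM in the msm libraries, against 1058, 1073 and 1162 RPKM in the wild-type libraries. Wild type 4 exceeded msm 2 there, and the means were 1268 ± 125 RPKM in msm and 1098 ± 56.4 RPKM in wild type. Bra033967 (702 bases) was lower in every msm library than in any wild-type library: 1149.7, 1014 and 1069 RPKM in the msm libraries, against 1190.3, 1233 and 1322 RPKM in the wild-type libraries. In the opposite way, Bra024832 (234 bases) was higher in every msm library, with 1410.2, 1186 and 1248 RPKM in the msm libraries, against 1024, 1028 and 1076 RPKM in the wild-type libraries. Its ratio of 1.23 lay near the upper bound of the rule.

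Bra037296 (516 bases) had the widest spread within msm among the 10 most abundant members, a CV (SD over mean) of 15.2%, with msm 1 apart from the rest: it had 1312, 987 and 1061 RPKM in msm 1, 2 and 3, and 1069.7, 1083 and 1123 RPKM in wild type 1, 2 and 4. Its wild-type CV was 2.56%, and its group means nearly coincided, at 1119.8 ± 170.4 RPKM in msm and 1092 ± 27.9 RPKM in wild type. Bra003645 (615 bases) overlapped between the groups, with 1089.5, 908 and 1015 RPKM in msm 1, 2 and 3, and 855, 882 and 939 RPKM in wild type 1, 2 and 4. The ratio of its means was 1.13. Bra009282 (291 bases) had narrow groups that did not overlap, at 866, 827 and 854 RPKM in msm 1, 2 and 3, and 998, 971 and 959 RPKM in wild type 1, 2 and 4. It was the lower in msm, with a ratio of 0.87. Bra001134 (408 bases) was at 948, 845 and 891 RPKM in msm 1, 2 and 3, and 864, 819 and 877 RPKM in wild type 1, 2 and 4, and its groups overlapped. Bra031210 (507 bases) had 1026, 915 and 917 RPKM in msm 1, 2 and 3, and 769.9, 783 and 825 RPKM in wild type 1, 2 and 4. Each msm library of this gene was above each wild-type library, by a ratio of means of 1.2. Bra016729 was the longest of the 10 (1020 bases) and also lay higher in all msm libraries, with 931, 852 and 899.7 RPKM in msm 1, 2 and 3, and 836, 799.6 and 829 RPKM in wild type 1, 2 and 4. Of these 10 genes, 3 had msm libraries that all lay above the wild-type libraries, 2 had msm libraries that all lay below, and 5 overlapped. On the same RPKM scale, all msm libraries lay above in 47.5% of all genes tested and below in 20.8%. These positions depend on the scale, as described further on.

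**Figure D2:**
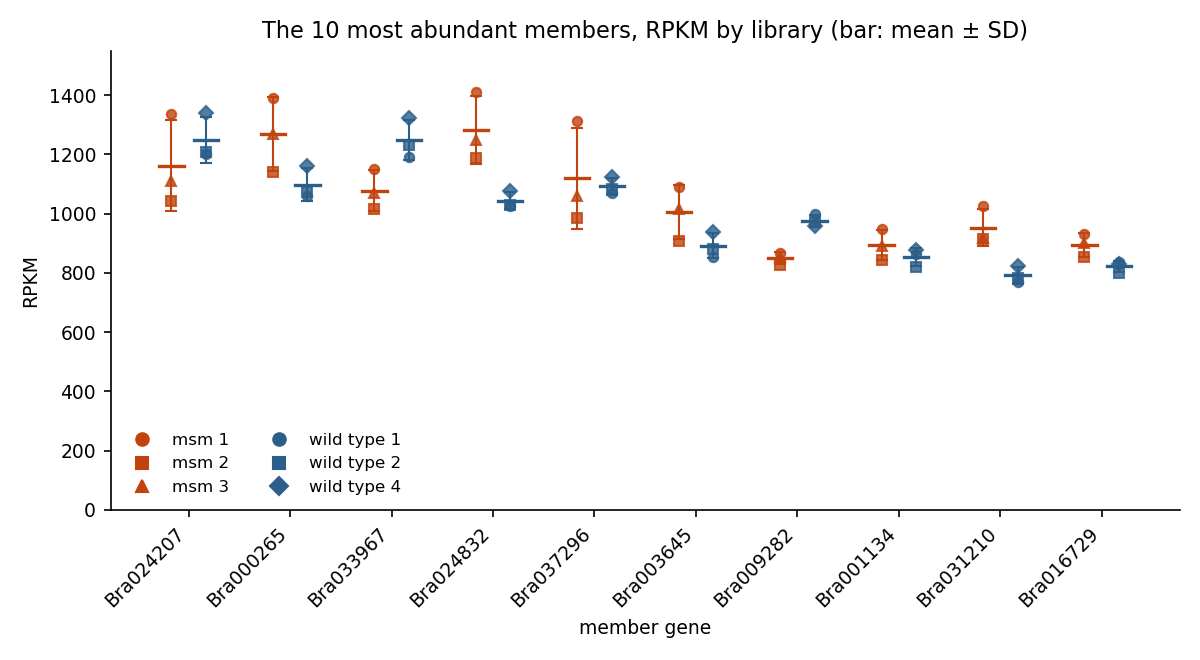
RPKM (vertical axis, from 0) of the 10 members with the highest mean over the 6 libraries, with the 3 msm libraries left and the 3 wild-type libraries right for each gene; points are libraries, horizontal bars are means and error bars are SD. The msm SD is larger than the wild-type SD in all 10 genes, by little in Bra033967 and Bra009282, and msm 1 is the highest msm library in each.

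Across all 176 members the ratio of msm over wild type had a median of 1.02 on the deposited RPKM scale. It was over 1 in 102 members and under 1 in 74. A narrower window of 0.9 to 1.11 held 122 members, and 0.95 to 1.05 held 80. Over 29048 genes tested with wild-type reads the median ratio was 1.17, and 39.8% of them lay in the window of 0.8 to 1.25. Genes of the next lower abundance, with a mean of 100 to 300 RPKM, had a median ratio of 1.05 and 57.7% within the window (n = 1479).

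At the lower edge of the ratio stood Bra010615 (309 bases), with 321, 282 and 299 RPKM in the msm libraries, against 377, 376 and 369.6 RPKM in the wild-type libraries. Its ratio was 0.803, and its msm mean of 300.3 ± 19.6 RPKM also made it the member closest to the level minimum in msm. Bra038725 (618 bases) was next, with 416, 335 and 347 RPKM in the msm libraries, against 446, 433 and 486 RPKM in the wild-type libraries. All msm libraries lay below all wild-type libraries in both genes. Just outside this edge was Bra012848, at a ratio of 0.7996 and means of 564 ± 27.3 RPKM in msm and 705 ± 59.2 RPKM in wild type. At the upper edge, Bra030858 (2070 bases) had 436, 445 and 437 RPKM in the msm libraries, against 353, 357 and 347 RPKM in the wild-type libraries, a ratio of 1.25. Bra032670 (1887 bases) had 751, 879 and 851 RPKM in the msm libraries, against 694, 659 and 638 RPKM in the wild-type libraries, with a ratio of 1.25. The msm libraries of both these genes were all above the wild-type libraries. Just outside was Bra019742, at a ratio of 1.26 and means of 400.3 ± 10.9 RPKM in msm and 319 ± 19.8 RPKM in wild type. The level minimum in wild type was met most narrowly by Bra013200, at 344 ± 22.4 RPKM in msm and 301 ± 8.01 RPKM in wild type, and missed most narrowly by Bra039496, at 344 ± 20.7 RPKM in msm and 294 ± 1.84 RPKM in wild type. In msm it was missed most narrowly by Bra003808, at 299.7 ± 33.0 RPKM in msm and 302 ± 19.5 RPKM in wild type. Every group mean in this paragraph is given with its SD, n = 3.

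Near-equal means did not always come from near-equal libraries. In 125 of the 176 members, the ratio stayed within 0.8 to 1.25 in each of the 9 possible pairings of libraries, 1 from msm with 1 from wild type. The ratio of a single pair ran from 0.687 to 1.46. In 155 members every library reached 300 RPKM, and the lowest value of a member in a library was 270.2 RPKM. Members were also chosen anew from 4 libraries, leaving out 1 of each group, and their ratio was read in the pair left out. This description was added after the data were seen. A group's libraries may be technical repeats, so the left-out pair is no independent evidence. Over the 9 ways to do so, 161 to 181 genes were chosen, and 82.6% to 95.9% of them lay within the window in the left-out pair. The median ratio in that pair ran from 0.920 (msm 2 over wild type 4) to 1.11 (msm 1 over wild type 2). Of the other genes with at least 300 RPKM in both, 5.26% to 26.5% lay within the window in the left-out pair. Those genes were not chosen because of their ratio, which lowers this share by construction. Shares were lowest with wild type 1 or 2 left out beside msm 1 and with wild type 4 beside msm 2, at 82.6% to 83.9%.

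Closeness of the groups depended on the scale on which they were compared. RPKM uses the total of reads alone. TMM gave factors of 1.07 to 1.09 for msm and 0.921 to 0.929 for wild type. Divided by these, the ratios moved by a median factor of 0.856, or -0.22 on the log2 scale. The median ratio of the members was then 0.873, with a range of 0.687 to 1.07, and 156 of the 176 lay under 1. The window of 0.8 to 1.25 and the minimum of 300 RPKM were met on the TMM scale by 187 genes, of which 139 were shared with the members, which is 79.0% of the members and 74.3% of the 187. Bra024207, with 0.93 on the RPKM scale, had a ratio of 0.796 on the TMM scale. Bra037296 had 1.03 and 0.878, and Bra024832 had 1.23 and 1.05, in that order of scales.

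**Figure D3:**
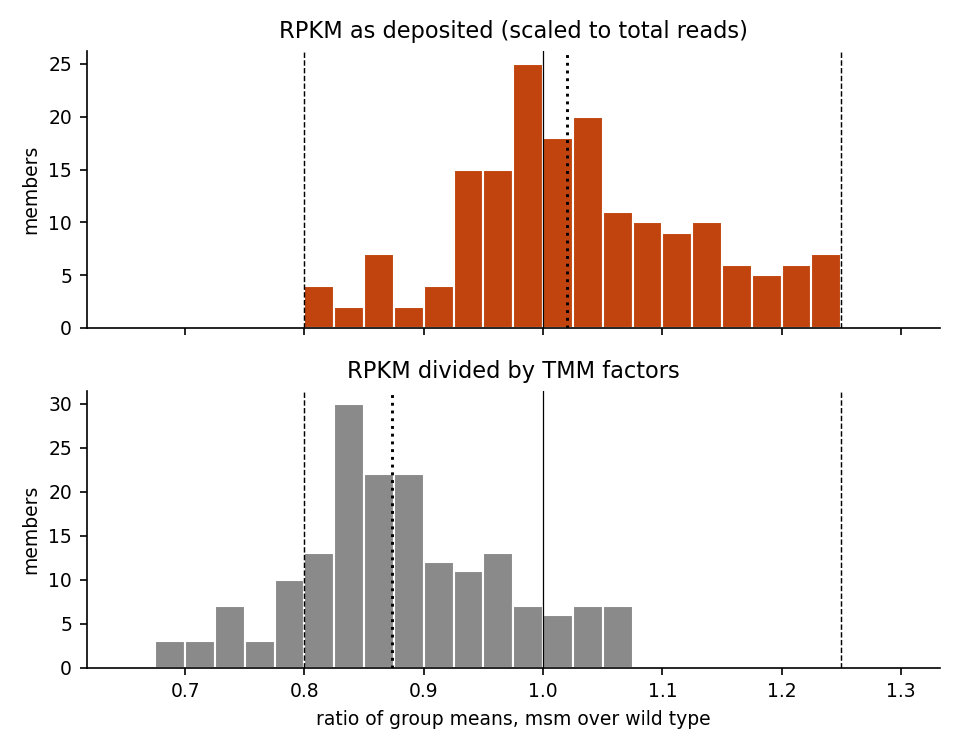
Number of members (vertical axis) by the ratio of group means, msm over wild type (horizontal axis), for RPKM as deposited (top) and RPKM divided by TMM factors (bottom). Dashed lines mark 0.8 and 1.25, the solid line marks 1 and the dotted line the median, which is 1.02 at the top and 0.873 at the bottom.

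In edgeR's quasi-likelihood test with TMM scaling, fitted over 29104 genes, all 176 members passed the filter on low counts. With Benjamini-Hochberg adjustment over all genes and no minimum fold, 115 members (65.3%) were lower in msm at an adjusted p below 0.05, beside 30.1% of all genes tested. No member was higher, beside 26.8% of all genes tested. At an unadjusted p below 0.05 edgeR had 0 members higher and DESeq2 had 1. After adjustment DESeq2 had 0 of the 176 members higher, beside 19.5% of the genes it tested, and 116 of the 176 lower, beside 24.4%. No member was called at 2-fold or more, beside 4.64% of all genes higher and 12.5% lower. The rule used this contrast, so these counts are no evidence about the members. Their median log2 fold change was -0.19, with a range of -0.53 to 0.10 and a median standard error of 0.06, and the median of all genes tested was 0.005.

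The same calls were not made on total counts. There, edgeR put 44 of the 176 members higher in msm, beside 45.7% of all genes tested, and 16 of the 176 lower, beside 19.9%. Limma on log2(RPKM + 1) had 36 of the 176 higher, beside 44.6%, and 13 of the 176 lower, beside 19.8%. The median log2 fold change of the members was 0.03 on total counts and 0.02 in limma, and that of all genes tested was 0.22 and 0.19. Set against the median of all genes tested, the members' median lay lower in each of these fits. The difference was 0.19 log2 units in edgeR on both scales and 0.16 in limma. The rule kept the members' RPKM ratios near 1, so this difference is no evidence about the members. A change of scaling shifts members and all genes nearly alike, so the equal value on both scales is no second result. As RPKM, the median ratio was 1.04 over all 272 genes with at least 300 RPKM in both groups, members included. It was 1.17 over the 29048 genes tested with wild-type reads. On the RPKM scale all msm libraries lay above all wild-type libraries in 44 members (25%), beside 47.5% of all genes tested, and all below in 14 (7.95%), beside 20.8%. On the TMM scale 122 members (69.3%) had all msm libraries below, beside 32.9%. Bra030858 was the only member with all msm libraries above there, beside 28.6% of all genes tested.

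The spread within groups, which the rule did not use, was wider in msm for most members; this was described and not tested. The CV of RPKM over the 3 libraries had a median of 7.03% in msm (quartiles 4.39% and 9.29%) and 3.61% in wild type (quartiles 2.47% and 4.73%). It was larger in msm in 146 members (83.0%), beside 67.7% of the 96 other genes with at least 300 RPKM in both groups and 57.8% of the 28664 genes tested with reads in both groups. A CV over 10% was found in 17.05% of the members in msm and in 0 in wild type, beside 21.9% and 1.04% of the 96 other genes and 43.5% and 36.1% of all genes tested. The other genes had medians of 5.67% in msm and 4.16% in wild type, and all genes tested had 8.80% and 7.36%. These differences between gene sets were not tested, and the sets were not matched for coding length. With msm 1 left out the median CV of the members was 4.17% in msm, and with wild type 4 left out it was 2.07% in wild type.

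The steadiest members and the least steady ones show this range. Bra018017 (621 bases) had 413, 407 and 408 RPKM in the msm libraries, against 388, 391 and 399 RPKM in the wild-type libraries, with a CV of 0.82% and 1.47%. Its groups did not overlap, although their means of 409 ± 3.36 RPKM in msm and 393 ± 5.75 RPKM in wild type differed by a ratio of only 1.04. Bra028324 (669 bases) had 359, 358 and 371 RPKM in the msm libraries, against 307, 307 and 308 RPKM in the wild-type libraries. Its CV was 2.04% in msm and 0.28% in wild type, and the wild-type value was the smallest among the members. At the other end, Bra005720 (243 bases) had 841, 632 and 652 RPKM in msm 1, 2 and 3, and 615, 617 and 682 RPKM in wild type 1, 2 and 4. Its msm CV of 16.3% was the largest of the members and came from msm 1 alone standing high. Bra029984 (441 bases) had 374, 281 and 311 RPKM in msm 1, 2 and 3, and 349, 371 and 408 RPKM in wild type 1, 2 and 4, where msm 1 was also the highest msm library and wild type 4 the highest of its group.

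The same libraries were high or low in most members. Within msm, library 1 was the highest in 137 members and library 2 the lowest in 137. Within wild type, library 4 was the highest in 125, and libraries 2 and 1 were the lowest in 90 and 67. This order changed with coding length, most in msm 1 and msm 2. Among the 92 members under 600 bases, the median difference from the group mean was 8.57% in msm 1 and -8.12% in msm 2, with 89 members above the mean in msm 1 and 2 above it in msm 2. In the 56 members of 600 to under 1200 bases these medians were 5.48% and -4.77%. In the 28 members of 1200 bases or more they were -1.83% and 1.99%, with 7 above the mean in msm 1 and 21 in msm 2. Wild type 4 stood 3.41%, 2.35% and 1.20% above its group mean in the 3 classes of increasing length, and wild type 2 had -1.58%, -2.65% and -1.79%, so neither changed sides. Wild type 1 did, with -2.09%, 0.09% and 0.76%. Over all genes tested with reads in both groups, all 3 wild-type libraries changed sides. There wild type 1 had -2.23%, -0.94% and 0.47%, and wild type 2 had -0.87%, -0.40% and 0.74%. Wild type 4 had 2.68%, 0.97% and -1.41%. The turn in msm was seen over these genes too, where msm 1 had 7.08%, 2.99% and -2.54% and msm 2 had -7.27%, -3.21% and 2.25% in the 3 classes. An exception chosen after its values were seen is Bra030319 (1071 bases), which had 321, 408 and 342 RPKM in msm 1, 2 and 3, and 317, 357 and 369.9 RPKM in wild type 1, 2 and 4. There msm 2 lay 14.3% above its group mean, although the gene belongs to the middle class of length. What part this pattern has in the ratios was not tested. With msm 1 and wild type 4 both left out, a setting added after the data were seen, the rule was met by 165 genes, of which 160 were members.

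**Figure D4:**
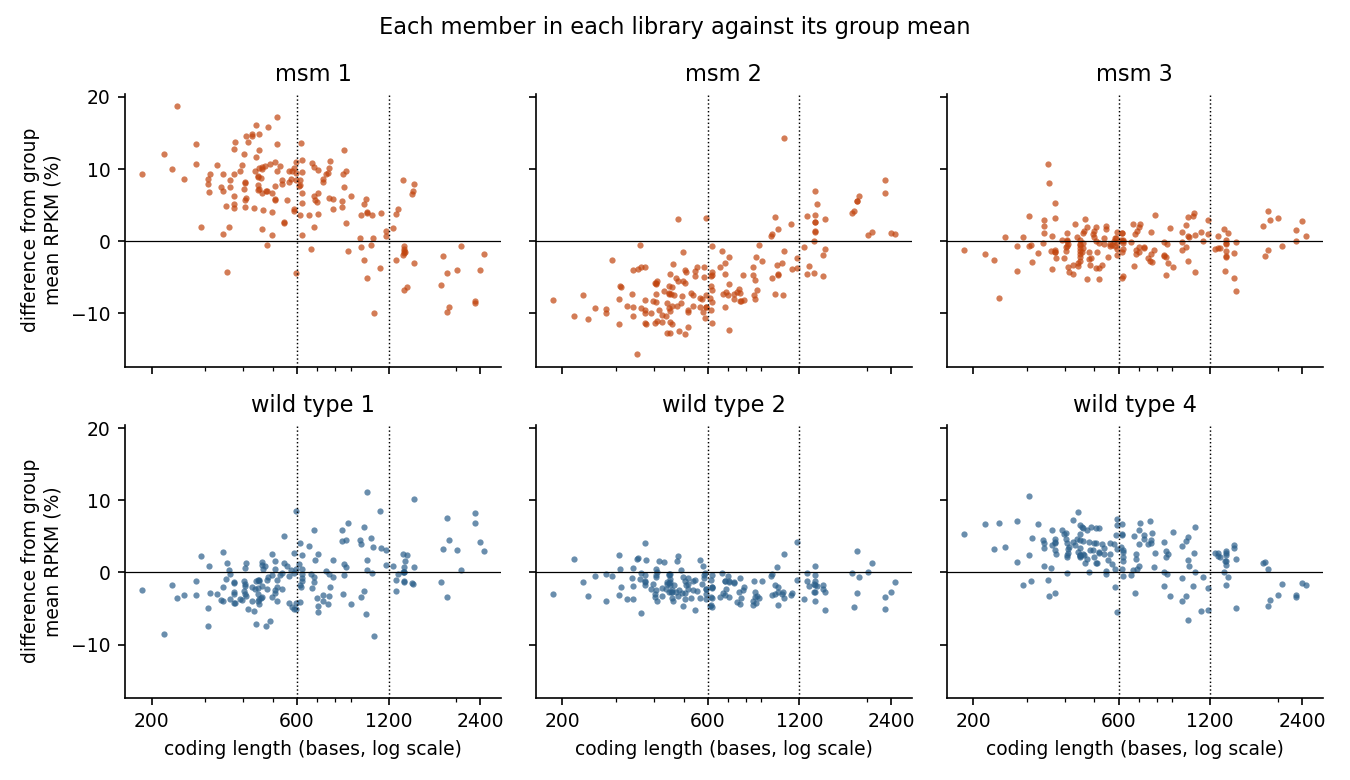
Each point is one of the 176 members; the horizontal axis is coding length in bases on a log scale with dotted lines at 600 and 1200, and the vertical axis is the difference of the library's RPKM from its group mean in percent. Panels are the 3 msm libraries (top) and the 3 wild-type libraries (bottom): most members under 600 bases lie above 0 in msm 1 and below 0 in msm 2, and most of 1200 bases or more the other way round.

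Members were short. Their coding lengths ran from 186 to 2469 bases with a median of 591, against 1122 bases over all genes tested. Under 600 bases were 92 members (52.3%), beside 44.8% of the 96 other genes with at least 300 RPKM in both groups and 17.8% of all genes tested. RPKM divides by length, so a level minimum in RPKM is met with fewer reads by a short gene. Whether this has any part in the lengths of the members was not tested. The median CV in msm was 8.51% in members under 600 bases, 5.99% at 600 to under 1200 bases and 3.86% at 1200 bases or more. In wild type it was 3.63%, 3.91% and 2.67%. The 96 other genes had 9.39%, 4.83% and 4.52% in msm, and 4.38%, 4.01% and 4.43% in wild type. In msm the members' median CV was thus lower than theirs in the shortest and longest classes and higher in the middle class. The median ratio of msm over wild type was 1.01, 1.02 and 1.04 in the members of the 3 classes, and 1.06, 1.15 and 1.22 over all genes tested with reads in both groups.

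The shortest member, Bra040286 (186 bases), had 387, 326 and 350.4 RPKM in the msm libraries, against 344, 342 and 372 RPKM in the wild-type libraries, and its groups overlapped. Bra009109 (219 bases) had 399, 319 and 349 RPKM in the msm libraries, against 397, 443 and 464 RPKM in the wild-type libraries, where msm 1 exceeded wild type 1 by a small margin and the other msm libraries lay below all of wild type. The longest member was Bra013774 (2469 bases), with 461, 474 and 473 RPKM in the msm libraries, against 418, 401 and 399 RPKM in the wild-type libraries. Its groups did not overlap and msm was higher. Bra016955 (2400 bases) was also without overlap, but lower in msm, with 318, 335 and 341 RPKM in the msm libraries, against 398, 372 and 376 RPKM in the wild-type libraries.

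Many members shared their exact coding length with another, 96 of the 176 in 37 lengths, and up to 5 members had one length. Equal length can arise by chance and does not show that genes are copies of each other. The 5 members of 1350 bases had msm means of 364 to 627 RPKM and wild-type means of 319 to 599 RPKM, and their ratios of 1.05 to 1.21 were all over 1. The 5 members of 621 bases had ratios from 0.922 to 1.04, and the 5 of 372 bases from 0.903 to 1.24. The highest member of 1350 bases, Bra006661, had 619, 644 and 619 RPKM in msm 1, 2 and 3, and 600.01, 592 and 606 RPKM in wild type 1, 2 and 4, and all its msm libraries lay above all its wild-type libraries. A single pair of members had consecutive identifiers, Bra014743 and Bra014744, which also had the same length of 765 bases. Bra014743 had 338 ± 22.5 RPKM in msm and 329 ± 14.6 RPKM in wild type, and Bra014744 had 499 ± 46.7 RPKM in msm and 461 ± 17.4 RPKM in wild type (SD, n = 3 each). Reads shared between such genes could have been lost in the counting, which the files do not show.

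Reads covered the members almost completely in both groups. The covered part of the coding length, which the rule did not use, had a median of 99.8% over members in msm and in wild type. In 156 members it was at least 99% in every library. In 107 members it was the same in all 6 libraries, and in 105 of these it fell 1 base short of the full length (within 0.5 bases). In 14 members (7.95%) it was under 95% in at least 1 library, beside 11.4% of the 2937 genes with at least 1587 reads in every library.

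In some members with incomplete coverage the covered part was nearly the same in every library. Bra033346 (510 bases) was covered to 78.04% ± 0 in msm and 77.91% ± 0.115 in wild type (SD, n = 3 each). Bra013215 (999 bases) was covered to 83.98% in each of the 6 libraries, Bra019632 (579 bases) to 82.4% to 82.6%, and Bra030858 to 87.5% in each. These were the 4 members below 90% in every library. Where the unread bases lie in these genes is not given in the files.

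Coverage differed by more between libraries in few members. Bra006553 (870 bases) was covered to 92.3%, 78.05% and 78.39% in msm 1, 2 and 3, against 77.82%, 77.82% and 77.93% in wild type 1, 2 and 4. The msm libraries all lay above wild type, but by a margin of under 1 percentage point apart from msm 1. It had 599, 509 and 529.5 RPKM in the msm libraries, against 548, 527 and 558 RPKM in the wild-type libraries, and these values overlapped. Bra000265, the second most abundant member, was covered to 91.79%, 86.67% and 94.36% in msm 1, 2 and 3, against 96.15%, 96.67% and 98.21% in wild type 1, 2 and 4, so that every msm library lay below every wild-type library although its RPKM was the higher in msm on average. Bra039301 (843 bases) was covered to 89.8%, 89.56% and 89.56% in msm 1, 2 and 3, against 89.56%, 92.17% and 96.09% in wild type 1, 2 and 4, and Bra032366 (759 bases) to 99.87%, 97.76% and 93.68% in msm 1, 2 and 3, against 92.49%, 98.29% and 95.92% in wild type 1, 2 and 4, both with overlap. Exact two-sided permutation tests on these 4 members, which had the largest differences of either sign, gave p = 0.1 for Bra000265 and Bra006553, 0.4 for Bra039301 and 0.6 for Bra032366. Adjusted by Benjamini-Hochberg over the 4 exact tests, p was 0.2, 0.2, 0.533 and 0.6. The 4 were picked from all members by these same differences, and the adjustment does not count that choice. These p-values are therefore a description and give no error rate. With 3 libraries against 3 no exact p can fall under 0.1. Coverage was higher in all msm libraries in 2 of the 176 members, Bra006553 and Bra002290, beside 3.88% of the 2937 genes as deep as the members. It was lower in all msm libraries in 1 of the 176, Bra000265, beside 2.04% of those genes. In Bra002290 the difference was 0.190 percentage points.

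**Figure D5:**
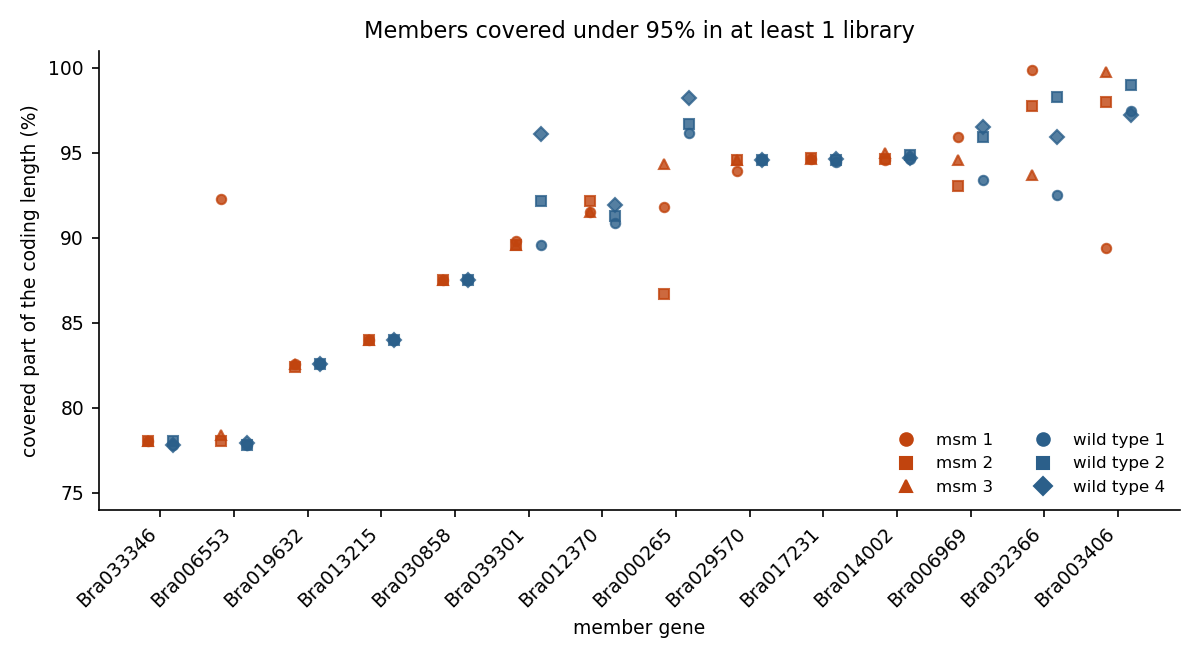
Covered part of the coding length in percent (vertical axis, which starts at 74) for the 14 members under 95% in at least 1 library, ordered by mean coverage; the 3 msm libraries are drawn left and the 3 wild-type libraries right for each gene. Several genes have nearly the same value in all libraries, while msm 1 stands alone in Bra006553 at 92.3% and all msm libraries lie below wild type in Bra000265.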

How the data were processed

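Each library came as its own table, in which the authors give per gene, per the file headers, the uniquely assigned reads, a length, the percentage of it covered and RPKM. The deposited counts are not normalized, since they sum to the header total in all 6 libraries. The authors' RPKM followed from count, length and total to a relative difference of 6.41e-15. All lengths are multiples of 3, so they are coding lengths. Coverage is deposited in percent, and 14 values passed 100. The submitters' processing notes name DESeq, with no version or role. Not given in the sources used here are the aligner, counting tool, genome build, annotation and use of strand. Genes absent from a table were set to 0 reads and 0 RPKM. Of 35421 identifiers, 1 matched a symbol of the RefSeq table (assembly CAAS_Brap_v3.01), and it was no member, so lists by symbol were not used.

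Counts were tested over all genes with edgeR 4.0.16 (R 4.3.3; quasi-likelihood, TMM, default expression filter, robust), tried on simulated data first. Alternatives were DESeq2 1.42.0, limma 3.58.1 on log2(RPKM + 1) or log2(RPKM + 0.1) for genes with a mean of at least 0.5 RPKM in a group, other scalings, no filter, each library left out and a replicate block. A call needs a Benjamini-Hochberg adjusted p below 0.05. Exact tests used SciPy 1.17.1. Fold changes are msm over wild type. Intervals from counting cover counting error only. Members and lists were chosen with earlier results of these data known. Named members are, by rule, the 10 most abundant; the 2 at each end of ratio, of CV, of coverage difference and of coding length; and those nearest to each threshold, with the nearest genes outside. Others named were chosen after their values were seen.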

Additional observations from a re-analysis of the deposited data

How the results depend on the processing

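The number of genes that met the rule was 389 with a minimum of 200 RPKM and 45 with 500 RPKM, and 122 to 218 under the other settings, with 167 to 181 when 1 library was left out; 151 of the 176 members met the rule whichever library was left out. The calls moved with the scaling. Limma changed the tool and the scaling at once, and its RPKM scale uses total reads. Its counts lay near those of edgeR on total counts, and those of DESeq2 lay near those of edgeR with TMM. Members higher in msm numbered 44 with total counts and 13 with upper quartile factors in edgeR, and 36 and 35 in limma with a pseudocount of 1 and 0.1, against 0 as reported. Members lower in msm numbered 16 with total counts, 58 with upper quartile factors and 13 in limma with either pseudocount, against 115. The median log2 fold change was 0.0284 with total counts, -0.0930 with upper quartile factors and 0.0246 in limma with either pseudocount, against -0.189; scaling moves all genes together, and the median of all genes moved with it. DESeq2 and the fit without a filter each put 116 members lower. Shares over all genes tested are given above for the reported fit, total counts, DESeq2 and limma with a pseudocount of 1. For the other fits in this paragraph no such share is given, so their counts cannot be set against all genes. With 1 library left out, 0 to 2 members were higher and 87 to 125 lower, and the median log2 fold change ran from -0.23 to -0.16. Numbers 1 and 2 are shared by both groups, and whether they pair the libraries is not known. Deviations from the group means correlated at -0.149 for number 1 and 0.121 for number 2 over 21497 genes. The highest correlation was 0.262, between msm 1 and wild type 4. With 3 libraries per group these values cannot decide on pairing. With the replicate number as a block 38 members were lower, all of them among the 115, and 0 higher. Number 3 occurs only in msm and number 4 only in wild type. That fit therefore compared the groups through libraries 1 and 2 of each alone, so its count is not like for like with the 115.

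The members' share of summed RPKM was 9.20% in msm and 8.70% in wild type, against 6.11% and 5.89% of reads; with 1 library left out the share of reads was 6.01% to 6.21% and 5.85% to 5.95%. As range over mean the median spread was 13.4% and 6.87%, by construction larger than a CV; with 1 library left out the CV ran from 4.17% to 9.34% in msm and from 2.07% to 3.66% in wild type. Coverage without overlap was higher in msm in 0 members when a gap of at least 1 percentage point was asked; with 1 library left out it was higher in 2 to 5 members and lower in 1 to 4. Of the 26 named members, 24 had a log2 ratio that moved by more than its replicate spread under TMM or median ratio factors. These factors shift all members by nearly the same amount, so that count only sorts members by their spread. None moved as far when 1 library was left out. Leaving out 1 of 3 libraries can hardly move a mean by more than that spread, so this result was fixed in advance. Copies that share reads and genes without names limit what can be said of single members.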
